A study of Mus musculus with 14 samples.

Results

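The lungs of mice given a carbonized carbon fibre (CCF) were compared with those of mice given the vehicle alone, taken as the 3 samples titled CCF and the 5 titled control among 14 lungs in the series, each on its own array. All mice were C57BL/6N males. The CCF mice had received 200 µg of carbon fibre, taken after the carbonization step of recycling, into the trachea, and the controls the PBS vehicle by the same route. Lungs were removed 1 month later. The labels give no age and do not say what else the fibre preparation held, and the design text calls the samples biologically independent. The other 6 lungs, 3 from mice given the fibre before recycling (VCF) and 3 given it after firing (RCF) at the same dose and time, entered the fit and are quoted beside CCF.

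Carbon fibre is a stiff thread of graphitic carbon, and carbonization is the heating step that strips the resin of a composite from it. Fibres that reach the alveoli are taken up or walled off by alveolar macrophages. Neutrophils come from the blood early after such a load and give way to macrophages and lymphocytes. Whole-lung RNA sums all of these cells with the epithelium, vessels and airways, so that fewer cells of a type and less RNA per cell cannot be told apart. Levels are log2 of array signal relative to the 75th percentile of the array, so that 0 marks that percentile. A difference is CCF minus control on that log2 scale with limma's standard error (±), for 3 CCF and 5 control arrays, and adjusted p is limma's, Benjamini-Hochberg over 30579 genes.

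CCF 1 and 2 shared slide 1 with control 1 and 2, and CCF 3 shared slide 2 with control 3. Control 4 and 5 stood on slide 3 with no CCF array. Slide 3 was also scanned on another day than slides 1 and 2. CCF 2 was dim, with a 75th percentile of intensity of 323. It was 1294 to 1616 on the other CCF arrays and 891 to 1831 on the controls. The other dim arrays of the series were VCF 1, at 277, and RCF 1, at 375. The lung genes Sftpc, Sftpb, Scgb1a1, Ager, Cldn5, Foxj1 and Marco, which mark alveolar, airway, vessel and macrophage cells, were well above background on all 8 arrays. Genes of tissues next to the lung were uneven among the controls. The summed signal of 10 adipocyte genes, in multiples of the 75th percentile, ran from 10.8 to 361 in controls and from 6.93 to 81.9 in CCF. For 8 squamous epithelium genes it was 3.82 to 83.8 against 2.74 to 6.88, with control 2 the highest in both lists. For 16 heart and skeletal muscle genes it was 60.5 to 279 against 62.8 to 216. None of the members of these 3 lists passed the threshold in CCF, and their part in other results was not tested.

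Of 30579 genes, 1832 (5.99%) passed an adjusted p of 0.05 in CCF against control, 1157 higher (3.78%) and 675 lower (2.21%). Among the 17290 with a gene symbol 775 rose (4.48%) and 292 fell (1.69%). The 3 CCF arrays lay outside the range of the 5 controls for 1786 of the 1832 genes, while 9.9% of all genes had every CCF array above every control and 6.46% below. The rises were shallow, with a median of 0.74, and the falls deeper, with a median of −1.33. The count rests on single arrays. It was 258 without CCF 2, 531 without CCF 1, 629 without CCF 3, 533 without control 4, 877 without control 5, 893 without control 1, 2717 without control 2 and 418 without the 3 dim arrays of the series. With only CCF and control arrays in the fit it was 271, and with the slide as a fixed block 1869, of which 1390 were shared.

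Genes of neutrophils, the granulocytes that reach an inflamed lung first, were among those that fell in CCF. Of 29 measured, 7 fell and 0 rose, against 1.69% and 4.48% of all genes with a symbol, and the median of the 29 was −0.74 against −0.003 over all genes. S100a8 and S100a9, the subunits of calprotectin that fill the neutrophil cytosol, were among the 7. S100a8 was at 4.31, 4.73, 4.26, 4.05 and 4.69 in the controls (1 to 5) and 2.95, 2.03 and 2.70 in the CCF lungs (1 to 3). It fell by 1.85 ± 0.36 (3.60-fold, adjusted p = 0.0174), and every CCF lung lay below every control, the dim array lowest. S100a9 was at 6.22, 6.49, 6.30, 6.23 and 6.90 in the controls (1 to 5) and 5.09, 4.27 and 4.89 in the CCF lungs (1 to 3), a fall of 3.20-fold (−1.68 ± 0.29, adjusted p = 0.0134) with no overlap of the groups. Within slide 1 the differences were −2.03 and −1.68, and within slide 2 −1.56 and −1.404.

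The other neutrophil genes that fell were Retnlg, Stfa2 and the receptor genes Trem3, Cxcr2 and Il1r2. Retnlg, a resistin-like peptide of neutrophils, went from 1.54 to 2.11 in controls to −0.40 to 0.60 in CCF (fell by 1.69 ± 0.31, adjusted p = 0.0144). Trem3, an activating receptor, went from −2.34 to −1.55 to −3.47 to −3.17 (fell by 1.25 ± 0.22, adjusted p = 0.0134). Cxcr2, the receptor for neutrophil-attracting chemokines, was at −1.07, −1.72, 0.21, −0.93 and 0.23 in the controls (1 to 5) and −2.92, −3.43 and −2.40 in the CCF lungs (1 to 3). It fell by 2.26 ± 0.52 (adjusted p = 0.031), while the controls spanned nearly as wide a range as the difference. Il1r2, the interleukin 1 decoy receptor, fell by 2.00 ± 0.52 (adjusted p = 0.0433) and Stfa2, a stefin that inhibits cysteine proteases, by 1.71 ± 0.43 (adjusted p = 0.0404). The dimmer probe of Il1r2 gave −0.87 ± 0.69 (adjusted p = 0.485). In all 7 genes the 3 CCF arrays lay below the 5 controls.

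Not every neutrophil gene moved. None of the 12 granule protein genes passed the threshold, at a median of −0.25, against 4 of 8 genes listed as cytosolic and 3 of 9 receptor genes. Csf3r, the receptor for granulocyte colony-stimulating factor, was at 6.11 to 6.72 in controls and 6.27 to 7.04 in CCF, a difference of 0.07 ± 0.27. Lcn2, an iron-trapping granule protein also made by airway epithelium, differed by 0.32 ± 0.20, and Ltf, lactoferrin, by 0.23 ± 1.10 over controls that spanned 0.30 to 3.77. S100a8, S100a9, Retnlg and Trem3 lost the threshold in 1 of 8 fits that left out a single array, the one without CCF 2 (adjusted p = 0.0803, 0.0597, 0.0641 and 0.0578), where 0 of the 29 passed. Cxcr2 and Il1r2 lost it in 6 of 8 (adjusted p up to 0.124 and 0.15) and Stfa2 in 7 of 8 (up to 0.16). The 3 CCF medians over the 29 genes were −0.68, −0.71 and −0.70, all under the controls' range of −0.32 to 0.17. The RCF medians over the 29 genes were 0.50, 0.30 and −0.71, so that RCF 3 was as low as the CCF lungs. Across the alternative settings this list's median difference ran from −0.99 to −0.37, the smallest without control 2.

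Neutrophil genes also separated CCF from VCF. The VCF means lay above control, at 1.01 for S100a8, 0.81 for S100a9, 1.18 for Retnlg and 1.62 for Cxcr2. None of these 4 differences between VCF and control passed (limma adjusted p = 0.344, 0.355, 0.185 and 0.302). The RCF means stood at 0.11, 0.04, −0.08 and 0.25. CCF against VCF, a contrast that uses no control, passed the threshold for S100a8 (−2.86 ± 0.40, adjusted p = 0.017), S100a9 (−2.49 ± 0.33, adjusted p = 0.0125) and Retnlg (−2.87 ± 0.34, adjusted p = 0.00697). It also passed for Trem3 (−2.04 ± 0.24), Stfa2 (−4.07 ± 0.48), Cxcr2 (−3.89 ± 0.59) and Il1r2 (−3.45 ± 0.58). Stfa1, Stfa2l1 and the collagenase gene Mmp8 stood at −0.74, −1.37 and −0.78 against control without passing. They were lower in CCF than in VCF, at −3.43 ± 0.41, −3.80 ± 0.51 and −2.43 ± 0.35. VCF against control passed for Stfa1 (2.69, limma adjusted p = 0.0401). It did not for Stfa2, Stfa2l1 and Mmp8 (2.36, 2.43 and 1.65, limma adjusted p = 0.0747, 0.0815 and 0.0816). CCF against RCF passed for none of these genes (adjusted p = 0.402 for S100a8).

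**Figure D1:**
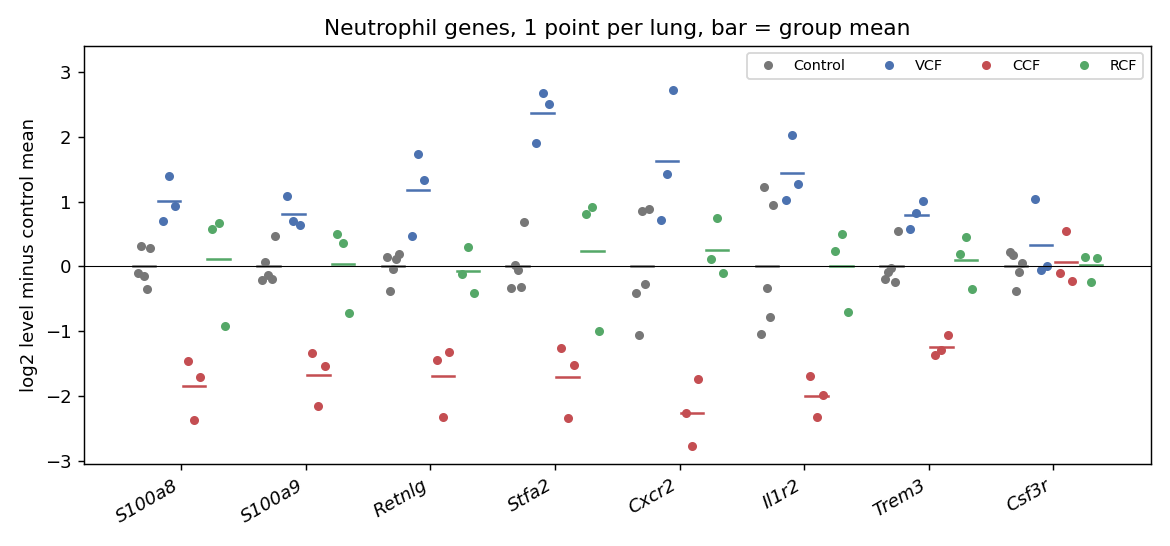
Level of 8 neutrophil genes in each of 14 lungs, as log2 minus the mean of the 5 controls (vertical axis), with 1 point per lung and a bar at the group mean for control, VCF, CCF and RCF. The 3 CCF points lie below all controls in the 7 genes that fell, while Csf3r shows no such gap.

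Few listed lymphocyte genes passed. Of 21 B cell and plasma cell genes 1 fell, Cd79b, a signalling chain of the B cell receptor, at 4.58, 4.06, 4.27, 4.51 and 3.84 in the controls (1 to 5) and 3.16, 3.25 and 3.42 in the CCF lungs (1 to 3). It fell by 0.98 ± 0.19 (1.97-fold, adjusted p = 0.0174), with all CCF lungs under all controls, and VCF and RCF stood at −0.95 and −0.71. 20 of the 21 genes had a negative difference (median −0.42), among them Ms4a1, which codes for CD20, at −0.82 ± 0.28 (adjusted p = 0.101). Ccr7, which guides T cells, B cells and dendritic cells to lymph nodes, fell on both of its probes, by 0.77 ± 0.20 (adjusted p = 0.0475) and 0.94 ± 0.23 (adjusted p = 0.0369). Cd8a, the coreceptor of cytotoxic T cells, rose by 0.61 ± 0.16 (adjusted p = 0.0405) while Cd3e, a subunit shared by all T cell receptors, stood at 0.0014 ± 0.26. Without CCF 1 or CCF 2 Cd79b was at an adjusted p of 0.0619 to 0.0703. Cd8a lost the threshold in 6 of 8 fits that left out an array and Ccr7 in 7 (up to 0.162 and 0.166).

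Among macrophage and granulocyte markers the gene that held its call best was Lyve1, a hyaluronan receptor of lymphatic vessels and of macrophages around blood vessels. It was at 2.63, 2.59, 2.78, 2.76 and 3.18 in the controls (1 to 5) and 3.66, 3.94 and 4.01 in the CCF lungs (1 to 3), a rise of 2.11-fold (1.08 ± 0.17, adjusted p = 0.00993). The groups did not overlap, the difference was 1.19 within slide 1 and 1.23 within slide 2, and the adjusted p stayed at or under 0.0438 whichever array was left out. It was the member that rose of 16 monocyte and interstitial macrophage genes. Of 19 alveolar macrophage genes 1 rose, the sialic acid receptor gene Siglecf, by 0.59 ± 0.15 (adjusted p = 0.0368, up to 0.144 in 5 of 8 fits without an array). The macrophage genes Spp1, Gpnmb and Mmp12, known to rise with particle load, stood at 0.42 ± 0.24, 0.40 ± 0.29 and 0.86 ± 0.43 without passing, and 0 of 19 genes listed for particle exposure passed. Ccr3, the eotaxin receptor of eosinophils, fell from −3.00 to −2.66 to −4.55 to −3.47, by 1.30 ± 0.25 (adjusted p = 0.0173, 0.0569 to 0.0631 without CCF 1 or CCF 3), 1 of 14 genes of eosinophils, basophils and mast cells. None of 22 chemokine ligand genes passed.

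Interferons signal through a complex that holds STAT2 and IRF9 and binds an interferon-stimulated response element before its target genes. Of 34 genes of this response 2 rose, Stat2 and Irf9 (5.88%, near the 4.48% of all genes with a symbol), and 0 fell. Stat2 was at 2.41, 2.45, 2.31, 2.17 and 2.24 in the controls (1 to 5) and 3.27, 3.04 and 3.17 in the CCF lungs (1 to 3), a rise of 1.80-fold (0.85 ± 0.13, adjusted p = 0.00806). All CCF lungs lay above all controls, within slide 1 by 0.73 and within slide 2 by 0.87, and the adjusted p stayed at or under 0.0354 whichever array was left out. Its other probe, at −4.97 in controls and above background on 3 of the 8 arrays, gave −0.10 ± 0.67. Irf9 was at 2.57, 2.58, 2.70, 2.52 and 2.62 in the controls (1 to 5) and 3.21, 3.01 and 3.18 in the CCF lungs (1 to 3), a rise of 1.45-fold (0.53 ± 0.13, adjusted p = 0.0399). Its controls lay within a narrow band under all CCF lungs, but the call was lost in 6 of 8 fits that left out an array (up to 0.124), and a second, dimmer probe gave 0.18 ± 0.26 (adjusted p = 0.728).

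The median of the 34 genes was 0.35, and their medians per lung were 0.39, 0.27 and 0.27 in CCF against −0.07 to 0.16 in controls. Ifit2, an antiviral effector that binds viral RNA, was at 0.71 ± 0.21 (adjusted p = 0.0705). Outside the list, and chosen after their values were seen, Iigp1 and Gbp8, GTPases induced by interferon gamma, rose by 1.20 ± 0.29 (adjusted p = 0.034) and 1.22 ± 0.29 (adjusted p = 0.0327), each lost in 6 of 8 fits without an array (up to 0.129 and 0.103). Against VCF the adjusted p was 0.0687 for Stat2 and 0.117 for Irf9, so that a difference between the fibres was not established. VCF stood at 0.12 and RCF at 0.31 for Stat2.

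The transcription factor NF-kB is held in the cytoplasm by IkB proteins, whose genes it then induces. Of 26 NF-kB subunit, inhibitor and target genes 2 rose and 2 fell in CCF, 7.69% each. Of all genes with a symbol 4.48% rose and 1.69% fell. Nfkbia, the gene of the inhibitor IkB alpha, was at 5.26, 5.32, 5.74, 5.29 and 5.68 in the controls (1 to 5) and 4.62, 4.68 and 4.48 in the CCF lungs (1 to 3). It fell by 0.87 ± 0.18 (1.82-fold, adjusted p = 0.0222), and every CCF lung lay under every control. Gadd45b, a stress-induced target that restrains JNK signalling, was at 3.05, 2.55, 2.94, 3.07 and 2.93 in the controls (1 to 5) and 1.93, 2.03 and 2.07 in the CCF lungs (1 to 3). It fell by 0.90 ± 0.16 (1.87-fold, adjusted p = 0.0134), again without overlap and with control 2 the lowest control. Nfkbiz, a nuclear IkB protein that works with NF-kB on secondary targets, went the other way, from −1.45 to −0.999 to −0.35 to 0.16, a rise of 1.03 ± 0.18 (adjusted p = 0.0134, at or under 0.0453 whichever array was left out). Another probe of Nfkbiz gave 0.63 without passing (adjusted p = 0.226). Icam1, the adhesion molecule by which leukocytes hold on to endothelium, was at −0.38, −0.32, −0.32, −0.58 and −0.72 in the controls (1 to 5) and 0.89, 0.63 and 0.54 in the CCF lungs (1 to 3), a rise of 2.23-fold (1.16 ± 0.24, adjusted p = 0.0202). Tnfaip3, the feedback inhibitor A20, stood at 0.16 ± 0.21.

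Within slide 1 the differences of Nfkbia, Gadd45b, Nfkbiz and Icam1 were −0.64, −0.82, 0.94 and 1.12, and within slide 2 −1.26, −0.87, 1.26 and 0.86. Nfkbia passed in none of the fits without a CCF array (adjusted p up to 0.0734), Icam1 in none of these nor without control 4 (up to 0.074), and Gadd45b missed without CCF 2 (0.0542). Immediate early genes, which answer handling of the tissue within minutes, showed no call among 26, with medians per lung of −0.20 to 0.09 in CCF and −0.47 to 0.51 in controls.

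Clock genes form a loop in which PER, CRY and REV-ERB proteins repress the activators CLOCK and BMAL1. Of 21 such genes 2 rose (9.52%, beside 4.48% of all genes with a symbol), both repressors, and 0 fell. Nr1d2, the gene of REV-ERB beta, was at 2.03, 2.13, 2.37, 2.12 and 2.13 in the controls (1 to 5) and 3.27, 3.20 and 2.84 in the CCF lungs (1 to 3). It rose on both of its probes, by 0.95 ± 0.15 (adjusted p = 0.00996) and 1.12 ± 0.20 (adjusted p = 0.0139), with CCF above control throughout and the call kept whichever array was left out. Per2, a PER repressor, was at 1.75, 1.95, 2.66, 1.42 and 2.28 in the controls (1 to 5) and 3.16, 3.36 and 3.22 in the CCF lungs (1 to 3), a rise of 2.35-fold (1.24 ± 0.25, adjusted p = 0.0208). Its controls varied by more than 1 log2 unit, with control 3 the highest, and the call was lost without any 1 of the CCF arrays (up to 0.088). Nr1d1, the partner of Nr1d2, stood at −0.24 ± 0.32, Arntl, which codes for BMAL1, at −0.29 ± 0.25, and the output genes Dbp and Tef at 0.34 ± 0.26 and 0.35 ± 0.15. The time of day at which lungs were taken is not in the labels, and its part in these values was not tested. Nr1d2 was higher in CCF than in VCF (0.97 ± 0.16, adjusted p = 0.04), and stood at 0.80 in RCF against control.

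**Figure D2:**
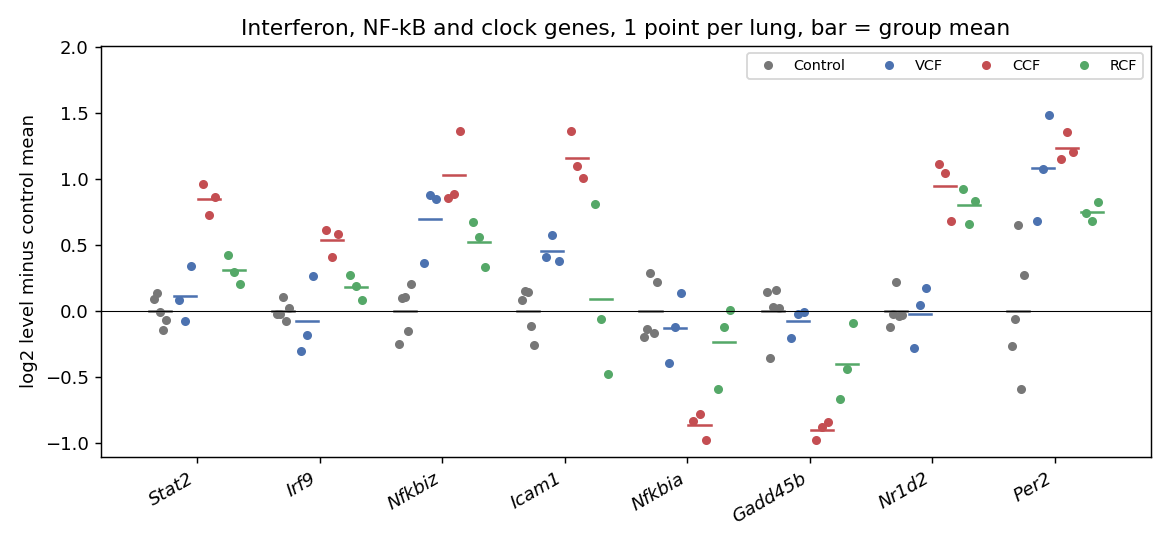
Level of 8 interferon, NF-kB and clock genes in each of 14 lungs, as log2 minus the mean of the 5 controls (vertical axis), 1 point per lung and a bar at each group mean. CCF points lie above all controls in 6 genes and below them in Nfkbia and Gadd45b.

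Large gene families were counted in the same way. Genes named Zfp, most of which code for DNA-binding zinc finger proteins, were frequent among the genes that rose. Of 352 measured, 63 rose (17.9%, against 4.48% of all genes with a symbol) and 2 fell, and 262 lay above 0. Their medians per lung were 0.26, 0.36 and 0.26 in CCF, 0.15 to 0.27 in RCF, 0.09 to 0.12 in VCF and −0.01 to 0.04 in controls, so that all CCF lungs lay above all controls. Zfp560 was at −6.47, −4.91, −5.90, −5.64 and −5.53 in the controls (1 to 5) and −3.61, −3.63 and −3.58 in the CCF lungs (1 to 3), with 2 of 5 controls above background, and rose by 2.09 ± 0.28 (adjusted p = 0.00608). Zfp677 rose by 1.52 ± 0.21 (adjusted p = 0.00635) and Zfp963 by 1.83 ± 0.42 (adjusted p = 0.03, lost without any 1 CCF array or control 1, up to 0.0929). Zfp560 and Zfp677 passed whichever array was left out. The exceptions were Zfp664, which fell by 1.64 ± 0.33 (adjusted p = 0.0189), and Zfp827, which fell by 0.57 ± 0.13 (adjusted p = 0.0307), calls that were lost in 3 and 5 of 8 fits without an array (up to 0.0795 and 0.108). The median difference of the family stayed between 0.23 and 0.30 in all settings tried, while its count of calls ran from 0 with replicates as a block to 110 with array weights.

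Ribosomal protein genes and genes of the respiratory chain stood on the other side. Of 81 ribosomal protein genes 0 rose and 4 fell (1.69% of all genes with a symbol fell), and 79 lay at or below 0, at a median of −0.41. Rpl24, of the large subunit, was at 5.25, 5.27, 4.96, 5.63 and 5.62 in the controls (1 to 5) and 4.36, 4.70 and 4.70 in the CCF lungs (1 to 3) and fell by 0.76 ± 0.20 (adjusted p = 0.0438). Rps13 and Rpl6 fell by 0.67 ± 0.18 and 0.43 ± 0.11. These 3 calls were lost in 6 or 7 of 8 fits that left out an array (adjusted p up to 0.163). Dimmer probes gave −0.32 for Rpl24 and −0.49 and −0.18 for Rpl6 without passing (adjusted p = 0.411, 0.0664 and 0.636). Of 79 respiratory chain genes 0 rose and 7 fell, at a median of −0.38. Atp5d, a subunit of the ATP synthase, fell from 3.31 to 3.68 to 2.52 to 3.02, by 0.75 ± 0.15 (adjusted p = 0.0189, up to 0.0866 without CCF 1, CCF 2 or control 4), and Ndufa2, of complex I, by 0.62 ± 0.13 (adjusted p = 0.0221, up to 0.0982 without the same arrays).

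The medians of the ribosomal list per lung were −0.49, −0.35 and −0.33 in CCF against −0.10 to 0.05 in controls, and those of the respiratory chain −0.37, −0.47 and −0.29 against −0.11 to 0.25. After quantile scaling the ribosomal median was −0.09, and after normexp with quantile scaling −0.07, so that most of this shift depended on the scaling. VCF medians of the ribosomal list were 0.13, −0.33 and −0.22 and RCF medians −0.19, −0.24 and −0.12.

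**Figure D3:**
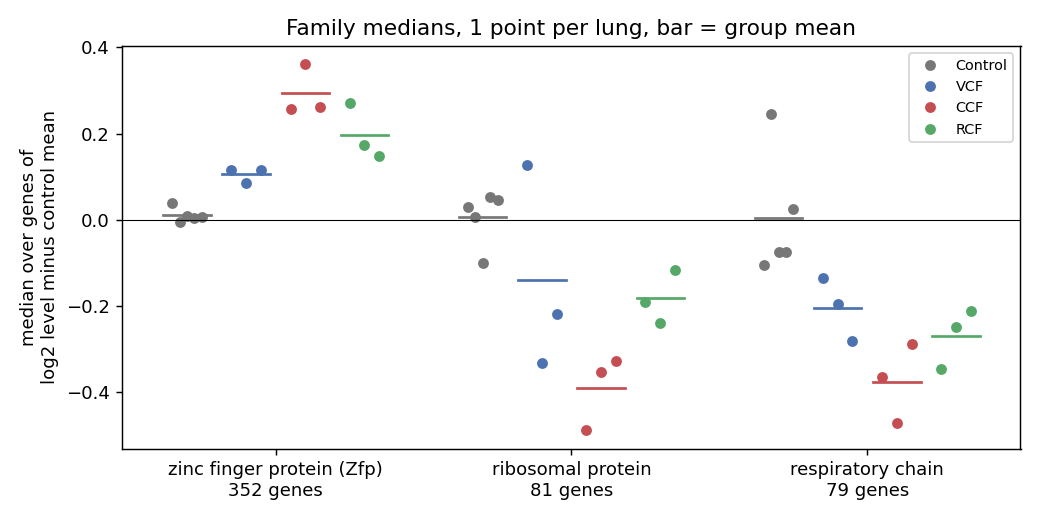
Median over all measured genes of 3 families in each of 14 lungs, as log2 level minus the mean of the 5 controls (vertical axis), 1 point per lung and a bar at each group mean. The CCF points of the 352 Zfp genes lie above the controls, and those of 81 ribosomal protein and 79 respiratory chain genes below them.

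The shares of genes that rose and fell also varied with the length of the gene and with its level. Among genes ordered by genomic span into 10 equal groups, 0.289% of the shortest (median 1638 bases) rose in CCF, 4.11% of the fourth and 7.35% of the ninth (median 82503 bases). In the tenth, the longest, 6.25% rose. The shares that fell were 2.66%, 1.62%, 1.504% and 2.54% in these 4 groups, with no steady order. In the shortest group the median difference was −0.16 and in the ninth 0.13. By level, 6.77% of genes in the seventh group of 10 rose and 2.71% fell, while among the brightest 1.86% rose and 4.15% fell. The families had different spans and levels: medians of 17.8 kb and a level of −1.12 for Zfp genes, and 3.16 kb and 6.19 for ribosomal protein genes. The part of span and level in the family values was not tested.

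Genes with several probes allow a check within the array. Of 378 such genes called higher, 53.7% had all other probes on the same side as the brightest, and of 103 called lower 50.5%, beside 54.8% of all 5923 genes with several probes. Some of the other probes were not above background on every array. Where only other probes above background on all 8 arrays were counted, the shares were 61.3% of 243 genes called higher and 50% of 74 called lower, beside 57.9% of 4048. Another such probe passed in the same direction for 47 of the 243 and 7 of the 74, and in the opposite direction for 10 and 7. In all 43 genes rose and 4 fell on every probe that was measured.

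**Figure D4:**
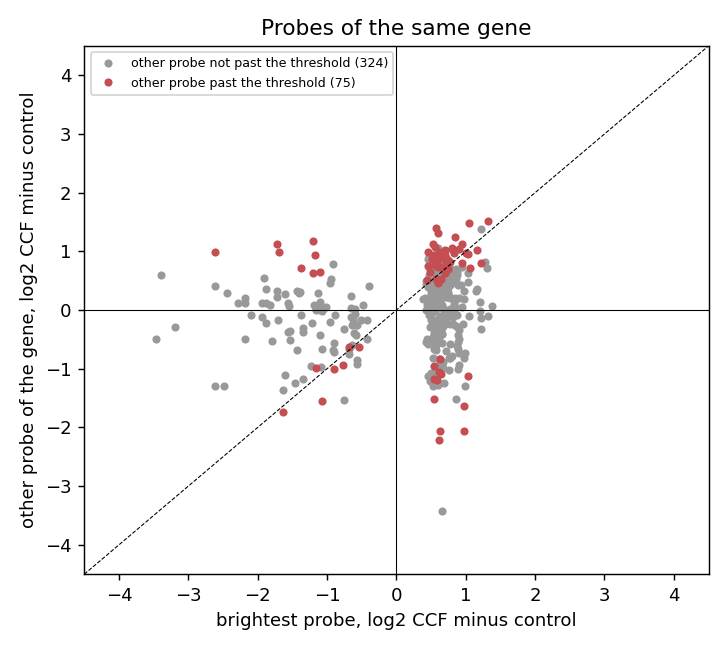
Difference between CCF and control (log2) of the brightest probe of a called gene (horizontal axis) and of each other probe of that gene above background on all 8 arrays (vertical axis), 299 pairs for genes called higher and 100 for genes called lower. Points on the dashed line agree in size, and the 75 red points passed on the second probe too. Of the pairs 191 and 57 had the same sign.

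There were 43 genes that rose on every probe. Crbn, cereblon, the substrate receptor of an E3 ubiquitin ligase, was at −1.93, −1.79, −1.67, −1.88 and −2.21 in the controls (1 to 5) and −0.75, −0.64 and −0.62 in the CCF lungs (1 to 3). Its brighter probe rose by 1.23 ± 0.16 (adjusted p = 0.00622) and the other by 0.80 ± 0.19 (adjusted p = 0.0324), with no overlap of the groups. Clk1, a kinase of splicing factors, rose by 1.02 ± 0.21 and 1.16 ± 0.21 on its 2 probes, and Rsrc2, an arginine- and serine-rich protein, by 1.01 ± 0.15 and 0.97 ± 0.16. Neat1, the long non-coding RNA around which paraspeckles form, rose by 1.06 ± 0.22 and 0.71 ± 0.16, Bclaf3 by 1.04 ± 0.12 and 1.48 ± 0.18, and Tasor2, related to a subunit of the HUSH silencing complex, by 1.04 ± 0.23 and 0.96 ± 0.25. Lin54, the DNA-binding subunit of the DREAM and MuvB complexes, rose by 0.94 ± 0.18 and 0.81 ± 0.16.

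Muc4, a membrane mucin of airway epithelium, was at 0.72, 0.60, 1.06, 0.55 and 1.11 in the controls (1 to 5) and 2.12, 1.73 and 1.98 in the CCF lungs (1 to 3). It rose by 1.14 ± 0.19 (adjusted p = 0.0112) and 1.48 ± 0.31 (adjusted p = 0.0213), and every CCF lung lay above every control. Cyp2b10, a cytochrome P450 of club cells, rose by 0.60 ± 0.13 and 0.75 ± 0.20. Hspa4l, a heat shock protein, rose on 3 of 3 probes, by 0.69 ± 0.16, 1.03 ± 0.21 and 1.01 ± 0.22, and Lamp2, a lysosomal membrane protein, by 0.64 ± 0.12 and 0.53 ± 0.13. Crbn, Muc4, Bclaf3 and Rsrc2 kept the call whichever array was left out. Clk1 and Lamp2 lost it without CCF 2 (adjusted p = 0.0653 and 0.0597), Lin54 without CCF 2 or 3 (up to 0.0765), Neat1 without CCF 1, CCF 2 or control 4 (up to 0.0781), and Tasor2, Hspa4l and Cyp2b10 in 4 to 5 of 8 fits (up to 0.11, 0.131 and 0.108).

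The 4 genes that fell on every probe were Maml3, Chd2, Ppargc1a and Ccr7. Ppargc1a, the coactivator PGC-1 alpha that drives mitochondrial gene expression, was at −0.58, −0.38, −0.35, −0.85 and −0.23 in the controls (1 to 5) and −1.54, −1.61 and −1.38 in the CCF lungs (1 to 3). It fell by 1.03 ± 0.19 (adjusted p = 0.0159) and, on the other probe, by 1.37 ± 0.20 (adjusted p = 0.0073), with all CCF lungs below all controls on the brighter probe. Maml3, a coactivator of Notch signalling, fell by 1.19 ± 0.22 and 1.77 ± 0.41, and Chd2, a chromatin remodeller, by 1.07 ± 0.25 and 1.55 ± 0.25. VCF stood at 0.01 and RCF at −0.37 for Ppargc1a, at −0.34 and −1.05 for Maml3, and at −0.21 and −0.75 for Chd2. Ppargc1a lost the call without CCF 1 or CCF 2 (up to 0.0693), Maml3 without CCF 2 (0.0678) and Chd2 in 6 of 8 fits (up to 0.113).

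The largest rises were in genes of low signal. Gna12, a G protein alpha subunit, was not well above background in any control and was at least 3.97-fold higher in CCF (adjusted p = 0.031, up to 0.123 in 6 of 8 fits without an array). Gmnc, which starts the multiciliated cell programme of the airway, was at −4.24, −4.58, −4.39, −4.26 and −4.12 in the controls (1 to 5) and −2.39, −2.16 and −2.48 in the CCF lungs (1 to 3). It rose by 1.98 ± 0.23 (3.94-fold, adjusted p = 0.00451), with 3 of 5 controls above background, no overlap, and an adjusted p at or under 0.0307 whichever array was left out. It was higher in CCF than in VCF (1.49 ± 0.25, adjusted p = 0.0397). Eppin, a protease inhibitor of the male tract, rose by 2.10 ± 0.28, beside 2.17 in VCF and 1.12 in RCF. Slc39a10, a zinc importer, was at −3.23, −3.45, −2.56, −3.42 and −3.37 in the controls (1 to 5) and −1.60, −1.13 and −1.48 in the CCF lungs (1 to 3), a rise of 3.49-fold (1.80 ± 0.26, adjusted p = 0.00698) on the brighter probe, while the dimmer one stood at 0.0027 ± 0.44. Scai, a suppressor of cell invasion, rose by 1.84 ± 0.23 on 1 probe and was at 0.06 ± 0.21 on the other. Eppin, Slc39a10 and Scai passed whichever array was left out.

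Gmnc acts ahead of the structural genes of motile cilia. Of 21 of these measured 3 rose (14.3%, beside 4.48% of all genes with a symbol) and 0 fell, at a median of 0.25. Rsph4a, of the radial spoke head, rose from −1.72 to −1.34 to −0.80 to −0.46, by 0.90 ± 0.16 (adjusted p = 0.0145, 0.0537 to 0.0565 without CCF 1 or CCF 2). Cfap43 rose by 0.56 ± 0.13 (adjusted p = 0.0308, up to 0.113), and its dimmer probe gave 0.57 ± 0.27 (adjusted p = 0.221). Hydin, of the central pair, rose by 0.60 ± 0.15 (adjusted p = 0.0361) on its brighter probe and fell by 1.79 ± 0.34 (adjusted p = 0.0165) on the other, so that its direction is not settled. Foxj1, the master regulator of motile cilia, stood at 0.22 ± 0.21. The medians per lung of the 21 genes were 0.53, 0.36 and 0.04 in CCF, where CCF 3 lay within the controls' range of −0.09 to 0.11. They were 0.30, 0.55 and 0.17 in VCF, all above the controls' range, and stood at −0.02 to 0.13 in RCF.

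There were 143 genes that fell by more than 2 log2 units, 45 with a symbol, and 30 of the 45 had a mean control level above the 75th percentile. Klra1, an inhibitory receptor of NK cells, was at 4.56, 5.01, 3.97, 5.43 and 5.95 in the controls (1 to 5) and 1.41, 2.65 and 0.85 in the CCF lungs (1 to 3), a fall of 10.2-fold (−3.35 ± 0.57, adjusted p = 0.0133). Mrgprg, a receptor of sensory neurons, went from 2.82 to 5.18 to −0.64 to 1.44 (fell by 3.77 ± 0.69) and Rhox3a, a homeobox gene of the reproductive tract, from 0.17 to 3.04 to −4.12 to −1.33 (fell by 4.60 ± 0.92). Cabp5, a calcium-binding protein of the retina, went from 7.46 to 8.21 to 5.16 to 6.26. Cabp5, Shc4, Lzts3 and Herc2 were chosen after their values were seen.

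Of the 45 genes, 18 had a further probe. In 9 of the 18 all other probes lay on the same side, and in 0 was another probe called in the same direction, beside 5.64% of all genes with several probes and 11 of the 103 called lower. Itga1, integrin alpha 1, fell by 3.47 ± 0.66 on its brighter probe (adjusted p = 0.0171) and stood at −0.48 ± 0.43 on the other (adjusted p = 0.537), although both were above background on all 8 arrays. Lypd6b fell by 3.39 ± 0.64 on its brighter probe and was at 0.60 ± 0.18 on the dimmer. The bright probe of Shc4 went from 7.59 to 5.45, while its second probe, at −5.88 in controls, was above background on 1 of 8 arrays. The 4 probes of Herc2, a large ubiquitin ligase gene, stood at −2.62 ± 0.52, 0.99 ± 0.16, −1.30 ± 0.41 and 0.42 ± 0.18, with calls in both directions. The rest of the 45 had no second probe, and what these probes bind was not tested.

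The same 45 probes were uneven in the other groups. Their median minus the control mean was −3.11, −2.21 and −3.19 in CCF 1 to 3. It was 0.47 in VCF 1, −1.26 in VCF 2 and −1.68 in VCF 3, and −1.52, −1.06 and −0.70 in RCF 1 to 3. In controls it ran from −0.68 in control 3 to 0.79 in control 5. VCF 1 and RCF 1 were dim arrays, and the part of this was not tested. The genes were chosen for their fall in CCF, so that the CCF values are a description, and the medians of the controls themselves spanned more than 1 log2 unit. Klra1 passed whichever array was left out (adjusted p up to 0.0468). Mrgprg, Itga1 and Lypd6b missed it without CCF 1 or CCF 3 (up to 0.0546, 0.0611 and 0.0586), Cabp5 and Shc4 without CCF 1 (0.0509 and 0.0515), and Rhox3a and Herc2 without CCF 1, CCF 3 or control 4 (up to 0.0701 and 0.0684).

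**Figure D5:**
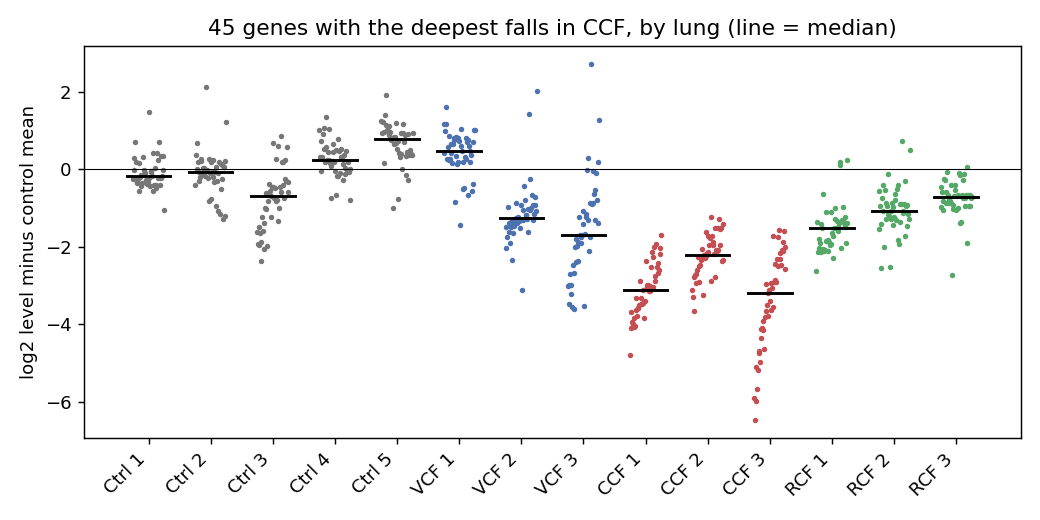
Level of the 45 genes with a symbol that fell by more than 2 log2 units in CCF, as log2 minus the mean of the 5 controls (vertical axis), for each of 14 lungs (horizontal axis), 1 point per gene and a line at the median of each lung. CCF medians lie at −3.11, −2.21 and −3.19, VCF 2, VCF 3 and the RCF lungs between −1.68 and −0.70, and VCF 1 at 0.47.

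Among the structural cells of the lung few listed genes passed. None of 14 alveolar type 2 genes, 11 alveolar type 1 genes, or 12 smooth muscle and pericyte genes did. The counts that follow stand beside 4.48% of all genes with a symbol that rose and 1.69% that fell. Of 16 endothelial genes 3 rose: Calcrl, a receptor for adrenomedullin, by 0.83 ± 0.18 (adjusted p = 0.0258), Tek, the angiopoietin receptor TIE2, by 0.76 ± 0.19 (adjusted p = 0.0413), and Ednrb, an endothelin receptor, by 0.54 ± 0.14 (adjusted p = 0.049). Tek was at 1.02 within slide 1 and 0.03 within slide 2, and at probe level Ednrb no longer passed. Of 33 collagen and matrix genes 1 rose, the collagen cross-linking enzyme gene Lox, from 0.02 to 0.44 to 1.01 to 1.397 (by 1.04 ± 0.24, adjusted p = 0.0298). Its second probe gave 0.48 ± 0.20 (adjusted p = 0.161). Of 12 fibroblast genes 1 rose and 2 fell. Fgf10, a growth factor of the lung mesenchyme, rose by 0.71 ± 0.18 (adjusted p = 0.0373) on its brighter probe and stood at −0.91 ± 0.84 on the other, which was not well above background in any CCF lung. Wnt2, a growth signal of the same tissue, fell by 0.60 ± 0.14 (adjusted p = 0.031) and Fgf2 by 3.62 ± 0.82 (adjusted p = 0.0281) as one of the deep falls. Of 25 complement and acute phase genes 2 rose, among them Lbp, which presents bacterial lipopolysaccharide, by 0.64 ± 0.17 (adjusted p = 0.0439). All these calls were lost in 4 to 7 of 8 fits that left out an array (adjusted p up to 0.158).

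CCF and the other fibres differed in few genes. Against VCF 68 genes passed (0.222% of those tested), 29 higher and 39 lower in CCF, and 42 of them also passed against control. Outside the neutrophil genes, Ehf, an epithelial transcription factor, was at −0.65, −1.09, −1.02, −0.73 and −0.80 in the controls (1 to 5) and −2.80, −2.39 and −1.99 in the CCF lungs (1 to 3) and fell against control by 1.53 ± 0.21 (adjusted p = 0.00608), while VCF stood at 0.06. It was lower in CCF than in VCF (−1.59 ± 0.23, adjusted p = 0.0175). Of its other 3 probes 1 fell, by 0.99 ± 0.24 (adjusted p = 0.0332), and the others stood at −0.50 ± 0.21 and 1.15 ± 0.45 without passing. Fst, follistatin, which binds activins, was lower in CCF than in VCF (−2.83 ± 0.39, adjusted p = 0.017) and fell against control by 1.51 ± 0.35 (adjusted p = 0.0311, up to 0.0986 in 6 of 8 fits). Usp37, a deubiquitinase of the cell cycle, fell against control by 2.59 ± 0.33 and was lower than in VCF (−2.15 ± 0.36, adjusted p = 0.0397). Cd8a was higher in CCF than in VCF (1.07 ± 0.17, adjusted p = 0.0337). So were the mitotic genes Kif20a (1.43 ± 0.15, adjusted p = 0.00587) and Mki67 (1.41 ± 0.17, adjusted p = 0.00697). Against control neither passed in CCF (0.37 and 0.44, adjusted p = 0.129 and 0.0977). Both were lower in VCF than in control (−1.06 and −0.97, limma adjusted p = 0.0373 and 0.0484). Ehf and Usp37 kept the call against control whichever array was left out. Against RCF 1 probe passed, without a symbol (0.00327%), so that of all named genes none was shown to differ between CCF and RCF.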

How the data were processed

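Per the file headers, the deposited array files hold intensity values from Feature Extraction 10.7.3.1 (one-colour Cy3), with a processed signal that the authors' scanner software background-subtracted and detrended but did not scale between arrays. The authors' deposited table for the series holds log2 values of 32177 probes that equal the log2 processed signal minus 1 constant per array. It served as an alternative.

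Log2 processed signal minus each array's 75th percentile over non-control spots was used, with outlier spots left out, spots of a probe averaged, and only probes that 3 or more of the 14 arrays marked well above background retained (37984). RefSeq accessions in the files named 32994 of 56605 probes. The brightest probe stood for a gene, and each probe was also fitted alone. Limma 3.58.1 (R 4.3.3, version 1.17.8 of data.table) fitted 4 groups on 14 arrays without covariates and was checked on simulated data. Tables and figures used Python 3.11.15, pandas 2.3.3, numpy 2.4.6 and matplotlib 3.10.9. "Called" and "passed" mean an adjusted p under 0.05. Groups lying below background are given as "at least" folds against the background level. The number of arrays limits the precision.

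Genes were named by a rule: past the threshold with CCF outside the control range, the 10 largest rises and falls on every probe, the 8 largest of the rest, and up to 4 called and 3 other members of each list, 4 of each family. Further names, chosen after their values were seen, were Arntl, Cabp5, Cd3e, Csf3r, Dbp, Ehf, Foxj1, Fst, Gbp8, Gpnmb, Herc2, Iigp1, Lcn2, Ltf, Lzts3, Mmp12, Ms4a1, Nr1d1, Shc4, Spp1, Stfa1, Stfa2, Tef, Tnfaip3, Usp37, Zfp677 and Zfp827. The members, lists and rule were chosen with earlier results of these data known. The mean signal planned for a background alternative was replaced by the median signal. Replicate numbers were not taken to pair arrays in the main fit, by a rule on residual correlation. Spans came from RefSeq, GRCm38.p6, and no position of a probe was used.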

Additional observations from a re-analysis of the deposited data

Results flagged for a closer look

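Several results stood apart by rules applied to the genes named here other than Kif20a and Mki67, and no explanation of them was weighed. CCF and VCF differed past the threshold of limma's direct contrast, at −2.86 for S100a8, −2.49 for S100a9, −4.07 for Stfa2, −2.87 for Retnlg, −3.89 for Cxcr2, −3.45 for Il1r2, −2.04 for Trem3, −3.43 for Stfa1, −3.80 for Stfa2l1 and −2.43 for Mmp8 (log2, CCF minus VCF), all neutrophil genes that were lower in CCF. The same contrast gave −2.15 for Usp37, −2.83 for Fst and −1.59 for Ehf. It was positive, at 1.07 for Cd8a, 0.97 for Nr1d2 and 1.49 for Gmnc.

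Among the 5 controls 1 lung stood apart from the other 4 in 13 genes, by a gap that was large against the controls' range. These were 12.7% of the genes examined, where chance marks about 1 in 20 such groups. The rule is relative, so that the gap itself could be small. Control 2 stood apart at 2.55 for Gadd45b, −2.30 for Arntl, 0.87 for Zfp664 and −1.61 for Maml3. Control 5 stood apart at −1.55 for Trem3, 2.78 for Foxj1, 0.44 for Lox and −2.64 for Atm, control 3 at 2.37 for Nr1d2, −2.56 for Slc39a10 and 1.62 for Tek, control 4 at −1.54 for Stfa2l1, and control 1 at −0.79 for Hydin. These are levels on the log2 scale of the arrays. For the genes of these that were called, the lung apart widened the control range that CCF was set against.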

How the results depend on the processing

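The 1832 genes past the threshold, and the 47 with every probe past it in 1 direction, depended on which arrays shared the fit and on its estimate of spread. Leaving out single arrays gave 258 to 2717 genes and 4 to 74 with every probe. Without the 3 dim arrays the counts were 418 and 5, without a filter on dim probes 372 and 5, and with only CCF and control arrays 271 and 3. They were 2953 and 96 with the slide as a random block, 4894 and 213 with array weights, and for every probe 105 with probes above background on all arrays, 29 after quantile scaling and 30 after normexp with quantile scaling. The normexp, quantile, median-scaled, slide-fixed, probe-mean and authors' table fits otherwise kept the gene count within 1.5 times. A similar count did not mean the same genes. With the mean over all probes 1244 of the 1832 passed again, and 65 of the 1832 had the other sign. After normexp with quantile scaling 1221 passed again and 4 had the other sign. Scaling moved the median of all genes by less than 0.1. The cause of these differences was not tested.

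With the replicate number as a block, which drops control 4 and 5, 2 genes passed, both lower, 5106 had an unadjusted p under 0.05 against 7250 without it, and 0 had every probe past the threshold. Arrays of the same number correlated in their residuals at 0.0879 to 0.554, with 2 of 3 over 0.1. Other pairs of a CCF and a control array ran from −0.416 to 0.327, with 1 of 12 over 0.1. Each pair of the same number also shared a slide, so that number and slide cannot be told apart. Whether the numbers pair lungs is not known.

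Of 84 named genes past the threshold, 18 passed in each fit that left out 1 array, and 81 kept their sign in every setting. The exceptions were Hydin and Fgf10, at −0.60 and −0.10 with the mean over their probes, and Atm, at −0.22 after normexp with quantile scaling. Most named calls were lost without CCF 2 (57), CCF 1 (54) or CCF 3 (48), and 84 with the replicate block. CCF 2 was dim, so that low probes on it are read near background.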

Other observations

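Stress and repair genes held a few further calls in CCF. Of 22 genes of the p53 pathway and DNA damage 3 rose (13.6%, beside 4.48% of all genes with a symbol) and 0 fell. Polk, a DNA polymerase that copies past lesions, was at −0.15, −0.13, −0.14, −0.33 and −0.27 in the controls (1 to 5) and 0.58, 0.59 and 0.48 in the CCF lungs (1 to 3), a rise of 1.69-fold (0.76 ± 0.11, adjusted p = 0.00698) with no overlap and a call that held whichever array was left out. Its second probe, above background on 4 of 8 arrays, gave −0.16 ± 0.73. Trp53inp1, a p53 target, rose by 0.80 ± 0.17 (adjusted p = 0.0244, up to 0.104 in 4 of 8 fits without an array). Atm, the kinase that senses double-strand breaks, rose by 0.81 ± 0.19 (adjusted p = 0.0304) on 1 probe and stood at −0.24 ± 0.33 (adjusted p = 0.717) on the other. Dnajb9, a chaperone of the endoplasmic reticulum, rose by 0.76 ± 0.15 (adjusted p = 0.0189), 1 of 19 genes of that stress response, and 0 of 15 NRF2 and metallothionein genes and 0 of 8 aryl hydrocarbon receptor genes passed.

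In other lists single members passed. Tlr5, the flagellin receptor, fell by 1.30 ± 0.33 (adjusted p = 0.0404) among 19 Toll-like receptor and adaptor genes. Gsta3, a glutathione transferase of club cells, rose by 0.39 ± 0.10 (adjusted p = 0.0416), and Mmp19, a matrix metalloproteinase, by 0.49 ± 0.13 (adjusted p = 0.0441). The dimmer probe of Gsta3 gave 0.19 ± 0.16 (adjusted p = 0.503). Plk1, a mitotic kinase, rose by 0.67 ± 0.18 (adjusted p = 0.0466) as 1 of 33 cell cycle genes. The medians per lung of the 33 genes were 0.08, 0.14 and 0.43 in CCF and −0.93 to −0.48 in VCF. CCF 1 and 2 lay within the controls' range of −0.16 to 0.23. Each of these calls was lost in 5 to 7 of 8 fits that left out an array. Of 281 genes of the Slc transporter family 13 rose and 0 fell (4.48% and 1.69% of all genes with a symbol), and of 252 olfactory receptor genes 0 rose and 1 fell.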
